A study of Homo sapiens with 6 samples.

Results

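The dystrophin-glycoprotein complex was followed through 8 of its genes, DMD, UTRN, DAG1, SGCA, SGCB, SGCD, SNTB1 and DTNA, out of 23540 genes in the deposited count table. The 8 genes were given by name, and their 55 RefSeq transcript rows were summed per gene symbol. All 8 passed the filter on low counts. The cells were primary human dermal fibroblasts, the connective tissue cells of the skin, of 1 line, and their polyadenylated RNA was sequenced in 3 groups of 2 libraries. VP64-MyoD cells carried mouse MyoD with the viral activation domain VP64 fused to its N-terminus. WT-MyoD cells carried unmodified mouse MyoD, the transcription factor that starts the muscle programme in many cell types. Both were delivered by a lentivirus that switches on with doxycycline and also makes the red protein dsRed-Express2. Transduced cells were selected with puromycin at 1 µg/mL, grown to confluence and given doxycycline at 3 µg/mL until harvest on day 10. The third group was untreated fibroblasts, and the labels do not say whether these cells were transduced, selected or given doxycycline, nor on which day they were harvested. Any effect of the virus, selection or drug therefore cannot be told apart from that of MyoD in comparisons with untreated cells.

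In muscle, dystrophin binds actin filaments under the membrane and, through its other end, the membrane protein dystroglycan, which holds laminin in the basement membrane. The sarcoglycans form a membrane subcomplex beside dystroglycan, and the syntrophins and dystrobrevins form a cytoplasmic arm that holds signalling proteins. Loss of dystrophin causes Duchenne muscular dystrophy, and loss of a sarcoglycan causes limb-girdle muscular dystrophy. Utrophin, an autosomal relative of dystrophin, can join the same complex and is found in many cell types outside muscle.

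Library totals lay between 40997586 and 53804224 counts, with each read pair counted as 2. Levels are CPM, the counts scaled to a common library size with TMM factors, which correct for library composition. The 6 skeletal muscle markers summed to between 2268 and 2643 CPM in VP64-MyoD cells, between 262 and 287 CPM in WT-MyoD cells and between 4.00 and 4.02 CPM in untreated cells. The 8 fibroblast markers were all above 1 CPM in every group, and summed to between 27536 and 29995 CPM in VP64-MyoD cells, between 24588 and 28077 CPM in WT-MyoD cells and between 37625 and 39828 CPM in untreated cells. COL1A1 and COL1A2 made up most of that sum. By group means, COL1A1, COL1A2, PDGFRA and PDGFRB were lower with both forms than in untreated cells, with PDGFRA libraries overlapping for WT-MyoD. LUM and VIM were higher with both forms, and DCN and THY1 were higher with WT-MyoD and lower with VP64-MyoD. The 5 Schwann cell or glia markers summed to at most 20.4 CPM in any library, with S100B at 0 in all 6. The 4 smooth muscle markers summed to between 170 and 180 CPM in VP64-MyoD cells, 114 CPM in WT-MyoD cells and 147 CPM in untreated cells. That sum holds opposite moves. SMTN had means of 145 CPM in VP64-MyoD, 70.6 CPM in WT-MyoD and 42.1 CPM in untreated cells. LMOD1 (22.4, 39.0 and 73.8 CPM) and CNN1 (5.51, 1.90 and 29.7 CPM) were highest in untreated cells. The 4 keratinocyte markers summed to at most 10.1 CPM in any library, highest in VP64-MyoD cells, with KRT1 at 0 in all 6, and the 4 endothelial and the 4 melanocyte markers to at most 1.95 CPM, with TYR at 0 in all 6. TP63 alone made up most of the keratinocyte sum in VP64-MyoD and WT-MyoD cells, at means of 9.63 and 3.36 CPM. The 3 blood markers summed to between 44.8 and 46.8 CPM in VP64-MyoD cells, between 177 and 180 CPM in WT-MyoD cells and between 67.8 and 69.2 CPM in untreated cells, with CD3E at 0 in all 6. Nearly all of that sum was CD68, at means of 44.2, 177 and 67.2 CPM, while PTPRC had means of 1.60, 0.936 and 1.26 CPM. The mouse Myod1 transgene had 5372 and 5056 counts in VP64-MyoD cells, 42900 and 41736 counts in WT-MyoD cells, and 254 and 46 counts in untreated cells. The part of the transgene level and of these marker levels in the differences below was not tested. In bulk RNA, fewer cells of a type and less RNA per cell cannot be told apart.

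MyoD binds E-boxes, sites with the letters CANNTG, so the windows before the start sites of member transcripts are shown for 4 genes. They were chosen by how the genes moved against untreated cells and because the SGCB window holds no E-box. SGCD moved in opposite directions with the 2 forms of MyoD, and DMD was lower with both by different amounts. DTNA and SGCB were higher with both. DMD and DTNA each have further windows that are not shown, some of them without a CANNTG. The DTNA window shown holds a CAGCTG, and most of the DTNA windows that are not shown hold none. Each line is the 250 bases before a RefSeq start site of assembly GRCh38.p14, read 5′ to 3′ on the strand of the gene, with every CANNTG in capitals.
DMD, chrX:33211550-33211799, minus strand: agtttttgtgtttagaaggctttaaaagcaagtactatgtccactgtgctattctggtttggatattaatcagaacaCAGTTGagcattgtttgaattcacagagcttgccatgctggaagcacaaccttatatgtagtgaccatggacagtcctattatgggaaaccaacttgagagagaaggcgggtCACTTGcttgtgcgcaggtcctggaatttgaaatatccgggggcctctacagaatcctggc
SGCD, chr5:156326914-156327163, plus strand: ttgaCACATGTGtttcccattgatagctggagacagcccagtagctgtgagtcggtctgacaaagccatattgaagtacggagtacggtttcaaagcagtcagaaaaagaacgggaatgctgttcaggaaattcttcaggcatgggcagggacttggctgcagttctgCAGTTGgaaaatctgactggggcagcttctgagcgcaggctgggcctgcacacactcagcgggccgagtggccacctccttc
DTNA, chr18:34710048-34710297, plus strand: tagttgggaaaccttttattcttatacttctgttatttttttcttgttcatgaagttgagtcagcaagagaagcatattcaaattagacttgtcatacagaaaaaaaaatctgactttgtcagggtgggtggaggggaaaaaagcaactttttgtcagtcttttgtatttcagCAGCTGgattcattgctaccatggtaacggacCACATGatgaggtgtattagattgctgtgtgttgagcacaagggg
SGCB, chr4:52038300-52038549, minus strand: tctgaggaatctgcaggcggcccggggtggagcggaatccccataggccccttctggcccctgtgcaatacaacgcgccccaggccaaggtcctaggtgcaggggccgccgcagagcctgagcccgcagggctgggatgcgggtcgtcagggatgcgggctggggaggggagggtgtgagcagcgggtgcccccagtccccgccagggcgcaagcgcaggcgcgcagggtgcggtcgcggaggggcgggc

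The DMD window lies before the first exon used by the muscle form of full-length dystrophin. A GENCODE transcript tied to NM_004006 starts within 30 bases of it. Its E-boxes, CAGTTG and CACTTG, begin 173 and 61 bases before the start site. In the SGCD window, CACATG and CATGTG overlap at 246 and 244 bases before the start site, and CAGTTG begins at 82 bases. No GENCODE transcript of SGCD starts within 100 bases of that site. The DTNA window has CAGCTG, a core that MyoD is known to prefer, at 77 bases before the start site, and CACATG at 45 bases. GENCODE transcripts tied to rows NM_001391, NM_032978 and NM_001198941 start within 14 bases of that site. Over the full RefSeq windows of 300 bases, which run on for 50 bases past the start, 13 of 20 windows of DMD, UTRN, DAG1, SGCB, SGCD and DTNA held a CANNTG, against 68.7% of 35116 windows of all genes. Most of the 20 belong to DMD and DTNA, and SGCA and SNTB1 had no window in the reference used. CAGCTG was in 3 of the 20 windows, against 17.9% of all windows, and CAGGTG or its other strand CACCTG in 3 of 20, against 20.6%. Some of the 20 windows overlap: 2 windows of DMD are shifted by 1 base and hold the same CAGGTG, so the 3 windows with that motif hold 2 distinct sites. CANNTG and CAGCTG read the same on both strands. A match is a string of letters and does not show that MyoD bound there.

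The 8 genes did not move as a block. Against untreated cells, WT-MyoD cells had 5 members higher (DAG1, SGCA, SGCB, SNTB1, DTNA), 2 lower (DMD, SGCD) and 1 not called (UTRN). VP64-MyoD cells had 6 higher than untreated cells (DAG1, SGCA, SGCB, SGCD, SNTB1, DTNA) and 2 lower (DMD, UTRN). Between the 2 forms, VP64-MyoD cells had 3 members higher than WT-MyoD cells (DMD, SGCD, SNTB1), 4 lower (UTRN, DAG1, SGCA, SGCB) and 1 not called (DTNA). A call is an adjusted p under 0.05 in edgeR's two-sided quasi-likelihood test, adjusted by Benjamini-Hochberg over 15289 genes. Of all genes tested, 48.5% were called for WT-MyoD against untreated (26.0% higher, 22.6% lower). For VP64-MyoD against untreated, 63.6% were called (33.3% higher, 30.3% lower). For VP64-MyoD against WT-MyoD, the share was 57.2% (28.7% higher, 28.4% lower). Calls were thus common among all genes, and whether the 8 members were called more often was not tested. The median log2 fold change of the members was 1.21, 0.64 and -0.26 in these 3 comparisons, against 0.00, 0.03 and 0.02 over all genes. The libraries of the compared groups did not overlap for 7 members in WT-MyoD against untreated, where 71.8% of all genes were apart, for 8 members in VP64-MyoD against untreated (83.5% of all genes) and for 8 in VP64-MyoD against WT-MyoD (78.5%). The comparisons with untreated cells share the same 2 untreated libraries. The design text calls the 2 libraries of a group biological duplicates; the p-values rest on how cultures of this single line varied.

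**Figure D1:**
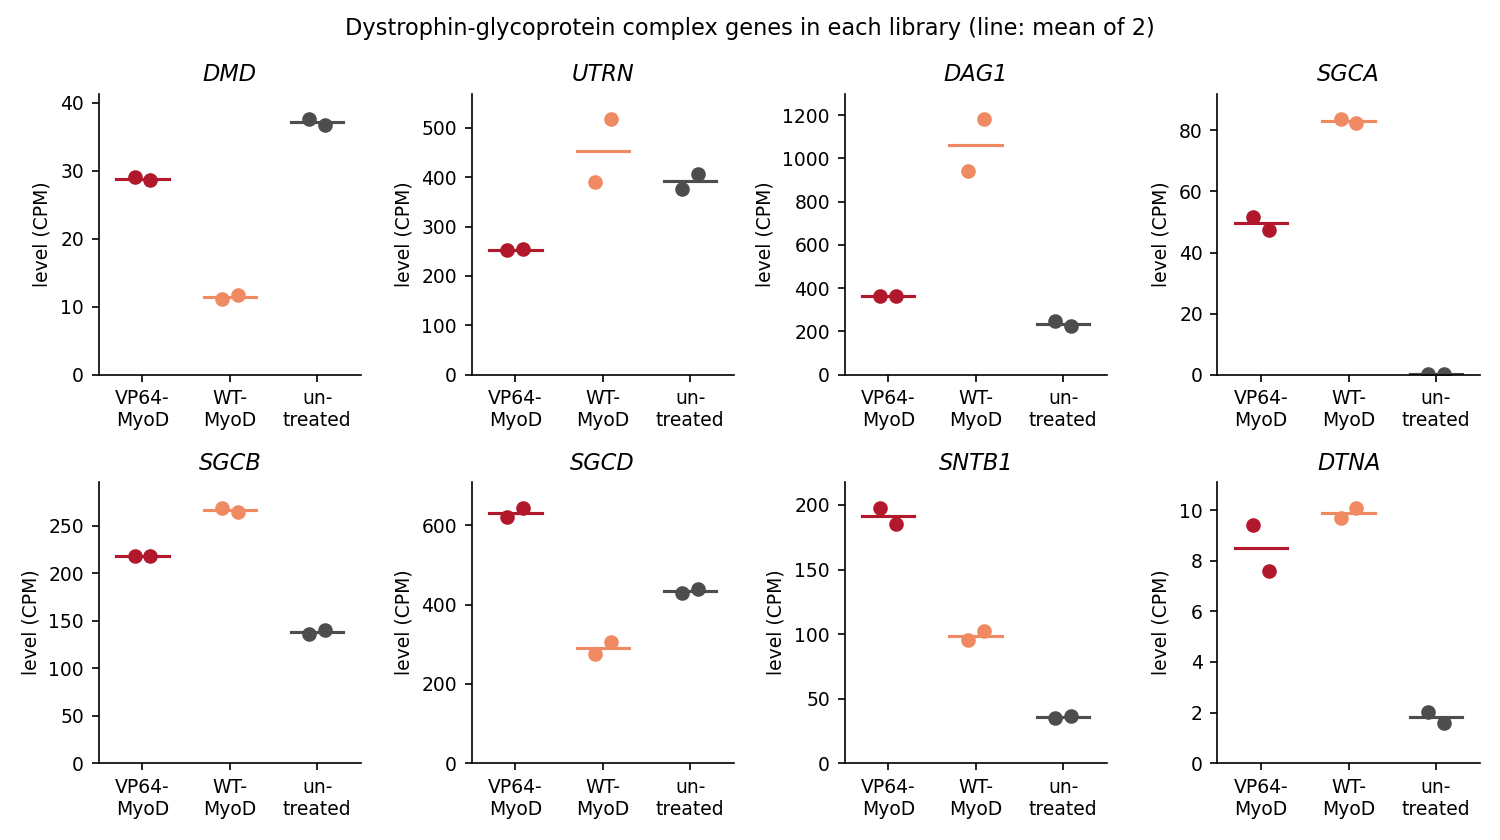
Level of each of the 8 genes in CPM (vertical axis, from 0, with its own scale for each gene) in the 2 libraries of VP64-MyoD, WT-MyoD and untreated cells. Points are libraries and lines are means. SGCA stood at 0.363 and 0.274 CPM in untreated cells, and 1 of the 2 UTRN libraries of WT-MyoD cells lies within the range of the untreated ones.

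DMD, which encodes dystrophin, was lower with both forms of MyoD than in untreated cells, and lowest with WT-MyoD. It had 29.1 and 28.6 CPM in VP64-MyoD cells, 11.1 and 11.7 CPM in WT-MyoD cells, and 37.6 and 36.7 CPM in untreated cells. The 3 groups did not overlap, and replicates lay within 1 CPM of each other. WT-MyoD cells were lower than untreated cells by a log2 fold change of -1.71 (SE 0.08, adjusted p = 4e-11 by edgeR). VP64-MyoD cells were lower than untreated cells by a smaller amount, with a log2 fold change of -0.37 (SE 0.07, adjusted p = 0.00048 by edgeR). Between the 2 forms, DMD was higher in VP64-MyoD cells by a log2 fold change of 1.34 (SE 0.08, adjusted p = 1.1e-09 by edgeR).

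DMD makes several proteins from separate start sites: full-length dystrophin with its actin-binding end, and the shorter Dp260, Dp140, Dp116, Dp71 and Dp40, named after their size, which lack that end in part or in whole. Its 17 rows were grouped into these classes from textbook knowledge after their values had been seen, so the class sums are descriptions. How the authors placed reads shared by isoforms is not given in the sources used here, and a row value is not the abundance of that isoform. GENCODE ties the Dp260 rows NM_004011 and NM_004012 to the same transcript start as NM_004006. The 4 full-length rows summed to 10.6 and 8.88 CPM in VP64-MyoD cells, 2.74 and 2.54 CPM in WT-MyoD cells, and 8.35 and 9.01 CPM in untreated cells. The VP64-MyoD and untreated libraries overlapped there, and WT-MyoD stood apart below both. The 4 Dp71 rows summed to 6.97 and 6.88 CPM in VP64-MyoD cells, 2.74 and 3.08 CPM in WT-MyoD cells, and 11.3 and 9.92 CPM in untreated cells. In Dp71, unlike the full-length rows, both VP64-MyoD libraries lay below both untreated ones. The 5 Dp140 rows had the same order, with 6.54 and 7.57 CPM in VP64-MyoD cells, 3.27 and 3.87 CPM in WT-MyoD cells, and 10.4 and 10.6 CPM in untreated cells. Full-length rows held 36.4% and 31% of DMD counts in VP64-MyoD cells, 24.7% and 21.8% in WT-MyoD cells, and 22.2% and 24.6% in untreated cells. The 2 VP64-MyoD shares were above the other 4.

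Tested row by row, with adjustment over 27757 rows, all 17 DMD rows were lower in WT-MyoD than in untreated cells, with log2 fold changes between -2.26 and -1.30, where 44.3% of all rows were called (20.2% lower). Against untreated cells, 7 rows were lower in VP64-MyoD cells and 10 were not called, with log2 fold changes between -0.95 and 0.36, where 58.6% of all rows were called (28.0% lower). None of the 4 full-length rows was among the 7, and 6 of the 13 rows of the shorter classes were not called either. The muscle form NM_004006 had a log2 fold change of 0.31 (SE 0.22, adjusted p = 0.24 by edgeR) for VP64-MyoD over untreated, without a call. Of the 4 Dp71 rows, NM_004015 had the lowest value of all 17 rows, -0.95 (SE 0.24, adjusted p = 0.0024 by edgeR), NM_004017 and NM_004018 were both called at -0.70, and NM_004016 was not called, at -0.14 (SE 0.23, adjusted p = 0.64 by edgeR). The differences between rows were not tested. All 17 rows were higher in VP64-MyoD than in WT-MyoD cells, by log2 fold changes between 0.83 and 1.94, where 51.7% of all rows were called (25.7% higher). The largest belonged to the full-length row NM_004010, at 1.94 (SE 0.26, adjusted p = 6.3e-06 by edgeR).

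**Figure D2:**
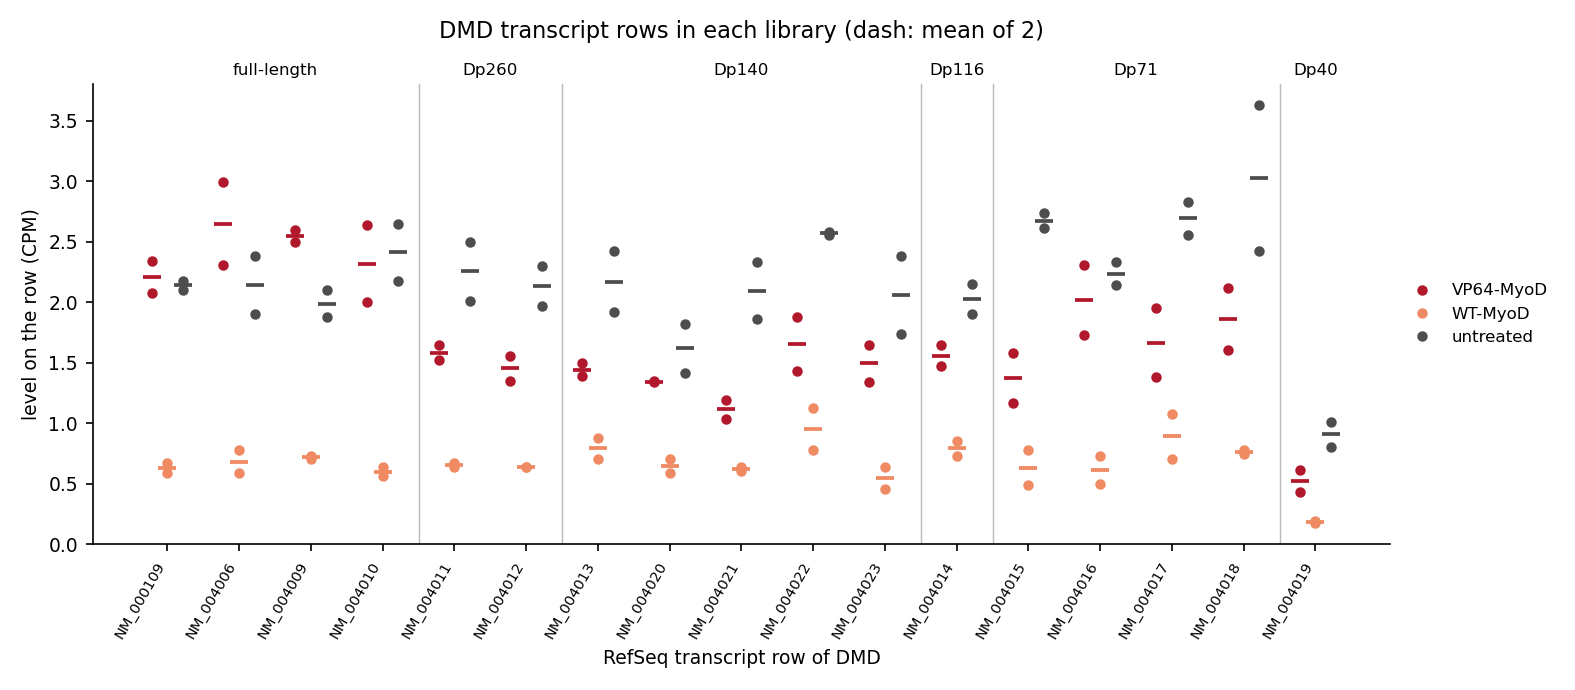
Level in CPM (vertical axis, from 0) on each of the 17 RefSeq transcript rows of DMD (horizontal axis, grouped by isoform class), in VP64-MyoD, WT-MyoD and untreated cells. Points are libraries and dashes are means of 2. WT-MyoD is lowest on all 17 rows, and VP64-MyoD libraries overlap or exceed the untreated ones on the 4 full-length rows.

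UTRN, which encodes utrophin, was lower in VP64-MyoD cells than in both other groups. It had 252 and 255 CPM in VP64-MyoD cells, 390 and 518 CPM in WT-MyoD cells, and 377 and 406 CPM in untreated cells. The 2 WT-MyoD libraries lay apart from each other, 1 of them within the untreated range. VP64-MyoD cells were lower than untreated cells by a log2 fold change of -0.63 (SE 0.10, adjusted p = 4.4e-05 by edgeR) and lower than WT-MyoD cells by -0.84 (SE 0.10, adjusted p = 2.9e-06 by edgeR). The difference between WT-MyoD and untreated cells was not called, at 0.21 (SE 0.10, adjusted p = 0.088 by edgeR). That value rests on 1 library: it was 0.40 (adjusted p = 6.9e-07 by edgeR) without WT-MyoD replicate 1, and 0.01 (adjusted p = 0.93 by edgeR) without WT-MyoD replicate 2.

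DAG1, which encodes dystroglycan, the laminin receptor that joins dystrophin to the matrix, had its highest level with WT-MyoD. It had 363 and 362 CPM in VP64-MyoD cells, 940 and 1182 CPM in WT-MyoD cells, and 246 and 224 CPM in untreated cells. The groups did not overlap, and the WT-MyoD libraries were the most spread. WT-MyoD cells were 4.51-fold higher than untreated cells (log2 fold change 2.17, SE 0.09, adjusted p = 1.4e-11 by edgeR), and VP64-MyoD cells 1.54-fold higher (log2 fold change 0.62, SE 0.09, adjusted p = 2e-05 by edgeR). VP64-MyoD cells were lower than WT-MyoD cells by a log2 fold change of -1.55 (SE 0.09, adjusted p = 9.6e-10 by edgeR). All 13 rows of DAG1 were called in the direction of the gene in each comparison. Of all rows, 44.3% were called for WT-MyoD over untreated, 58.6% for VP64-MyoD over untreated and 51.7% for VP64-MyoD over WT-MyoD. Each DAG1 row held between 7.01% and 8.41% of the gene's counts in every library, where equal shares would be 7.69%. The DAG1 rows therefore say little beyond the sum.

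**Figure D3:**
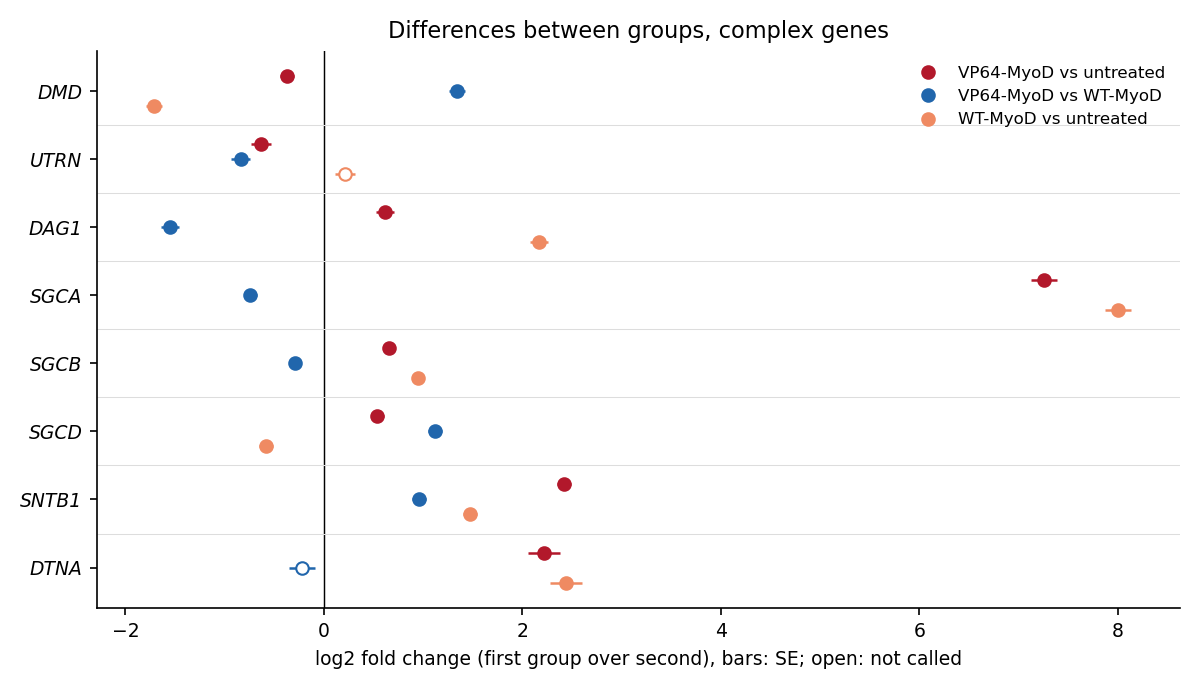
Log2 fold change (horizontal axis, first group over second) of each of the 8 genes (rows) in 3 comparisons, with SE bars, some smaller than their points. Filled points were called and open points were not. SGCA lies far to the right at 7.26 for VP64-MyoD and 8.0 for WT-MyoD over untreated, and DMD and SGCD lie below 0 for WT-MyoD over untreated.

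The 3 sarcoglycan genes differed among themselves. SGCA, which encodes alpha-sarcoglycan, a subunit known mainly from striated muscle, was far higher with either form of MyoD than in untreated cells, where it was near the detection limit. It had 51.7 and 47.5 CPM in VP64-MyoD cells, 83.7 and 82.3 CPM in WT-MyoD cells, and 0.363 and 0.274 CPM in untreated cells. The untreated libraries held 9 and 6 read pairs, 15 in all, with an exact 95% Poisson interval of 8.4 to 24.7. By counting error alone, the fold over untreated cells was 154 in VP64-MyoD cells (95% interval 93.6 to 275) and 258 in WT-MyoD cells (95% interval 157 to 461). The fitted log2 fold change over untreated cells was 7.26 for VP64-MyoD (SE 0.13, adjusted p = 3.2e-16 by edgeR) and 8.0 for WT-MyoD (SE 0.13, adjusted p = 4.6e-16 by edgeR). VP64-MyoD cells had less SGCA than WT-MyoD cells, with a log2 fold change of -0.74 (SE 0.07, adjusted p = 2.2e-07 by edgeR), while their skeletal muscle markers summed higher.

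SGCB, which encodes beta-sarcoglycan, found also outside striated muscle, was higher with both forms of MyoD by under 2-fold. It had 218 CPM in each of the VP64-MyoD libraries, 269 and 264 CPM in WT-MyoD cells, and 136 and 140 CPM in untreated cells. Replicates were within 5 CPM of each other, and the groups did not overlap. The log2 fold change over untreated cells was 0.66 for VP64-MyoD (SE 0.06, adjusted p = 1.1e-07 by edgeR) and 0.95 for WT-MyoD (SE 0.06, adjusted p = 1.8e-09 by edgeR). VP64-MyoD cells were lower than WT-MyoD cells by -0.29 (SE 0.06, adjusted p = 0.00068 by edgeR).

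SGCD, which encodes delta-sarcoglycan, moved in opposite directions with the 2 forms. It had 620 and 645 CPM in VP64-MyoD cells, 276 and 305 CPM in WT-MyoD cells, and 429 and 440 CPM in untreated cells. The untreated libraries lay between the other groups, with no overlap. VP64-MyoD cells were higher than untreated cells by a log2 fold change of 0.54 (SE 0.07, adjusted p = 3.9e-06 by edgeR), and WT-MyoD cells lower by -0.58 (SE 0.07, adjusted p = 2.6e-06 by edgeR). The direct difference, VP64-MyoD over WT-MyoD, was 1.12 (SE 0.07, adjusted p = 1.3e-09 by edgeR). All 3 SGCD rows were called in these directions, where 58.6%, 44.3% and 51.7% of all rows were called in the same 3 comparisons. Each of the 2 most abundant SGCD rows held between 46.8% and 48.5% of the gene's counts in every library. Being so near to equal, these 2 rows say little beyond the sum. The least abundant row, NM_172244, which had 31.5 and 30.9 CPM in VP64-MyoD cells, 12.9 and 13.8 CPM in WT-MyoD cells and 18.4 CPM in each untreated library, followed the 2 more abundant rows.

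SNTB1, which encodes beta1-syntrophin, an adaptor that binds dystrophin and utrophin, was higher with both forms and highest with VP64-MyoD. It had 198 and 185 CPM in VP64-MyoD cells, 95.1 and 102 CPM in WT-MyoD cells, and 35.1 and 36.3 CPM in untreated cells. The groups did not overlap. Over untreated cells, VP64-MyoD cells were 5.37-fold higher (log2 fold change 2.42, SE 0.07, adjusted p = 6.3e-14 by edgeR) and WT-MyoD cells 2.77-fold higher (log2 fold change 1.47, SE 0.07, adjusted p = 3.7e-11 by edgeR). VP64-MyoD over WT-MyoD was 0.96 (SE 0.07, adjusted p = 5.1e-09 by edgeR).

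DTNA, which encodes alpha-dystrobrevin, a dystrophin relative that binds syntrophins, was higher with both forms, from a low level. It had 9.40 and 7.61 CPM in VP64-MyoD cells, 9.70 and 10.1 CPM in WT-MyoD cells, and 2.02 and 1.60 CPM in untreated cells, the last from 50 and 35 read pairs. Both MyoD groups lay above the untreated libraries. The log2 fold change over untreated cells was 2.22 for VP64-MyoD (SE 0.16, adjusted p = 6.8e-09 by edgeR) and 2.44 for WT-MyoD (SE 0.16, adjusted p = 2.4e-09 by edgeR). The difference between the 2 forms was not called (VP64-MyoD over WT-MyoD -0.22, SE 0.13, adjusted p = 0.16 by edgeR), which does not show that they act alike. Of its 17 rows, 13 were higher in VP64-MyoD than in untreated cells (30.5% of all rows were), and 15 were higher in WT-MyoD than in untreated cells (24.2% of all rows). Between VP64-MyoD and WT-MyoD cells, 1 row was higher, 4 were lower (26.0% of all rows were) and 12 were not called. The higher row, NM_001198945, had 13 read pairs in each VP64-MyoD library, against 1 and 4 in WT-MyoD cells, with a log2 fold change of 2.30 (SE 0.68, adjusted p = 0.0086 by edgeR). The lower row with the smallest p, NM_001198942, had 8 and 5 read pairs in VP64-MyoD cells, against 21 and 20 in WT-MyoD cells, with a log2 fold change of -1.67 (SE 0.46, adjusted p = 0.0049 by edgeR). The 2 rows were picked after their values were seen.

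The authors' deposited table of comparisons lists 6 rows of 4 members, SGCA, SGCB, SGCD and SNTB1, among its 3135 transcripts. In the authors' deposited table, SNTB1 had a log2 fold change over untreated cells of 2.43 for VP64-MyoD and 1.47 for WT-MyoD. For SGCD row NM_000337, the authors' deposited table gives 0.52 for VP64-MyoD and -0.57 for WT-MyoD.

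Other subunits and partners of the complex were read from 4 lists. Of the 12 other subunits, 9 were tested; SGCZ, SNTG1 and SNTG2 had too few counts. In VP64-MyoD against untreated cells, 4 of the 9 were higher and 5 lower, with a median log2 fold change of -0.28, against 0.03 over all genes. In WT-MyoD against untreated cells, 3 were higher, 2 lower and 4 not called, with a median of 0.17, against 0.00. In VP64-MyoD against WT-MyoD cells, 4 were higher, 3 lower and 2 not called, with a median of -0.09, against 0.02. Of all genes tested, 63.6%, 48.5% and 57.2% were called in these 3 comparisons. Higher genes were 33.3%, 26.0% and 28.7% of all, and lower genes 30.3%, 22.6% and 28.4%.

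CAV3, which encodes caveolin-3, the muscle caveolin that binds dystroglycan, had 56.8 and 52.4 CPM in VP64-MyoD cells, 35.0 and 33.3 CPM in WT-MyoD cells, and 0.202 and 0.0457 CPM in untreated cells. Its untreated libraries held 5 and 1 read pairs, and the log2 fold change over untreated cells was 8.70 for VP64-MyoD (SE 0.19, adjusted p = 2e-15 by edgeR) and 8.03 for WT-MyoD (SE 0.19, adjusted p = 1.5e-14 by edgeR). Leaving out untreated replicate 1 gave 10.14 for VP64-MyoD and 9.46 for WT-MyoD, and leaving out untreated replicate 2 gave 8.06 for VP64-MyoD and 7.40 for WT-MyoD. DRP2, a dystrophin relative known from Schwann cells, had 17.4 and 15.7 CPM in VP64-MyoD cells, 3.55 and 2.89 CPM in WT-MyoD cells, and 3 and 1 read pairs in untreated cells. VP64-MyoD over WT-MyoD was 2.35 for DRP2 (SE 0.14, adjusted p = 1.2e-09 by edgeR).

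NOS1, which encodes the neuronal nitric oxide synthase that syntrophin and dystrophin hold at the muscle membrane, differed between the 2 forms. It had 13.8 and 12.5 CPM in VP64-MyoD cells, 0.391 and 0.245 CPM in WT-MyoD cells, and 0.283 and 0.229 CPM in untreated cells. VP64-MyoD over WT-MyoD was 5.31 for NOS1 (SE 0.21, adjusted p = 6.3e-12 by edgeR), with 16 read pairs in the WT-MyoD libraries together, while WT-MyoD over untreated was not called at 0.35 (SE 0.39, adjusted p = 0.49 by edgeR). SSPN, which encodes sarcospan, was lower than in untreated cells with both forms, by -0.88 for VP64-MyoD (SE 0.06, adjusted p = 6.6e-09 by edgeR) and -0.79 for WT-MyoD (SE 0.06, adjusted p = 3e-08 by edgeR).

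**Figure D4:**
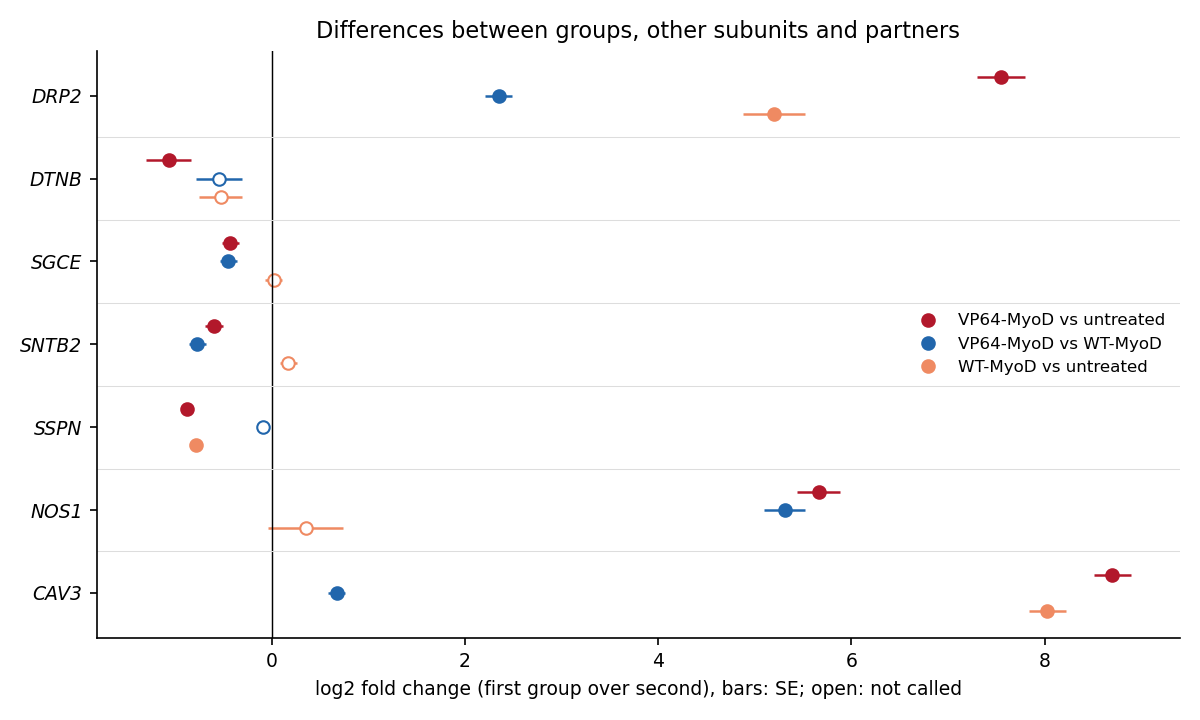
Log2 fold change (horizontal axis, first group over second) of 7 of the 9 tested genes among other subunits and partners (rows) in 3 comparisons, with SE bars. Filled points were called and open points were not. CAV3 and DRP2 are far right for both forms of MyoD over untreated, and NOS1 for VP64-MyoD over both WT-MyoD and untreated.

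Of 18 genes that build the sugar chain by which dystroglycan binds laminin, 17 were tested. In VP64-MyoD against untreated cells, 4 were higher, 3 lower and 10 not called, and in WT-MyoD against untreated cells 3 were higher, 4 lower and 10 not called. Both medians were -0.01, against 0.03 and 0.00 over all genes. Of all genes tested, 63.6% (33.3% higher, 30.3% lower) and 48.5% (26.0% higher, 22.6% lower) were called in these comparisons. B4GAT1, which primes the laminin-binding sugar, was lower in VP64-MyoD cells at 22.5 CPM, against 41.1 CPM in WT-MyoD cells (log2 fold change -0.87, SE 0.08, adjusted p = 1.6e-07 by edgeR). POMT1, which adds the first mannose, was lower in VP64-MyoD cells at 32.1 CPM, against 53.4 CPM in untreated cells (log2 fold change -0.73, SE 0.07, adjusted p = 8.8e-08 by edgeR). In VP64-MyoD against WT-MyoD cells, 4 of the 17 were higher, 7 lower and 6 not called, with a median of -0.11. Over all genes, 57.2% were called here (28.7% higher, 28.4% lower), with a median of 0.02. POMGNT2, which extends the mannose, and DPM1, which helps make the mannose donor, were higher in VP64-MyoD than in WT-MyoD cells, by 0.75 and 0.74 on the log2 scale. The other called genes with the smallest p moved less: B4GAT1 by 0.40, POMGNT1 by 0.31 and POMT2 by -0.27 in WT-MyoD against untreated cells, and B4GAT1 by -0.47, DOLK by -0.39 and POMGNT2 by 0.47 in VP64-MyoD against untreated cells.

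Of 13 matrix ligands of dystroglycan, 11 were tested. In VP64-MyoD against untreated cells, 3 were higher, 6 lower and 2 not called (median -0.21). In WT-MyoD against untreated cells, 3 were higher, 5 lower and 3 not called (median -0.14), and in VP64-MyoD against WT-MyoD cells 1 was higher, 7 lower and 3 not called (median -0.27). Of all genes tested, 63.6%, 48.5% and 57.2% were called in these 3 comparisons, with medians of 0.03, 0.00 and 0.02. Higher genes were 33.3%, 26.0% and 28.7% of all, and lower genes 30.3%, 22.6% and 28.4%. LAMA5, a laminin chain, had 82.2 and 77.1 CPM in VP64-MyoD cells, 100 and 133 CPM in WT-MyoD cells, and 3.27 and 2.93 CPM in untreated cells. LAMA2, the laminin chain of the muscle basement membrane, was higher in WT-MyoD cells at 281 CPM, against 130 CPM in untreated cells (log2 fold change 1.11, SE 0.08, adjusted p = 5e-09 by edgeR). HSPG2, which encodes perlecan, was lower in VP64-MyoD cells at 1156 CPM, against 3437 CPM in WT-MyoD cells (log2 fold change -1.57, SE 0.14, adjusted p = 1.1e-07 by edgeR). Its WT-MyoD libraries lay apart from each other, at 2704 and 4170 CPM. BGN, which encodes the proteoglycan biglycan, was higher in VP64-MyoD cells at 1487 CPM, against 738 CPM in WT-MyoD cells, while WT-MyoD cells lay below untreated cells by -1.15 on the log2 scale (SE 0.07, adjusted p = 7.5e-10 by edgeR). The laminin chains LAMB2 and LAMA4 were lower in VP64-MyoD than in untreated cells, by -1.36 and -0.84, and lower than in WT-MyoD cells, by -0.93 and -0.64. SLIT2, a guidance protein that binds dystroglycan, was lower than in untreated cells with both forms, by -1.10 for VP64-MyoD and -0.84 for WT-MyoD.

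Of 20 cytoskeletal and signalling partners, 19 were tested. In VP64-MyoD against untreated cells, 6 were higher, 7 lower and 6 not called (median -0.03). In WT-MyoD against untreated cells, 8 were higher, 5 lower and 6 not called (median 0.12), and in VP64-MyoD against WT-MyoD cells 3 were higher, 6 lower and 10 not called (median -0.14). Of all genes tested, 63.6%, 48.5% and 57.2% were called in these 3 comparisons, with medians of 0.03, 0.00 and 0.02. Higher genes were 33.3%, 26.0% and 28.7% of all, and lower genes 30.3%, 22.6% and 28.4%. DES, which encodes the muscle intermediate filament desmin, had 1328 and 1110 CPM in VP64-MyoD cells, 140 and 133 CPM in WT-MyoD cells, and 1.41 and 1.28 CPM in untreated cells. DYSF, which encodes the membrane repair protein dysferlin, had 200 and 174 CPM in VP64-MyoD cells, 62.9 and 68.3 CPM in WT-MyoD cells, and 3.19 and 2.65 CPM in untreated cells. Both genes had the same order of groups as SNTB1. KRT18, a keratin, was lower in WT-MyoD cells at 2.30 CPM, against 11.3 CPM in untreated cells (log2 fold change -2.31, SE 0.15, adjusted p = 2.7e-09 by edgeR), and was lower in VP64-MyoD than in untreated cells too, by -1.71. KRT19, a keratin that binds dystrophin, was lower in VP64-MyoD cells at 3.21 CPM, against 19.2 CPM in WT-MyoD cells (log2 fold change -2.59, SE 0.14, adjusted p = 2.4e-10 by edgeR). ANK2, which encodes ankyrin-B, was lower in VP64-MyoD cells at 106 CPM, against 204 CPM in WT-MyoD cells (log2 fold change -0.94, SE 0.07, adjusted p = 1.4e-08 by edgeR).

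Likeness of pattern was measured as the Euclidean distance between log2 profiles over the 6 libraries, each centred on its mean. UTRN was nearest to SNTB2, which encodes beta2-syntrophin, at 0.08, where the median distance of all genes from UTRN was 1.17, then to DDR2 at 0.10 and NBEA at 0.12. SNTB2 had 53.0 and 54.1 CPM in VP64-MyoD cells, 80.7 and 102 CPM in WT-MyoD cells, and 78.1 and 83.9 CPM in untreated cells. DMD was nearest to KCTD15 at 0.12, then PAX6 and AMIGO2 at 0.13, with a median of 1.92. SGCB was nearest to GLCE, SMAD1 and GLE1, all at 0.10, and SGCD to AK4 and AVEN, both at 0.10, and GUSBP11 at 0.14. DAG1 was nearest to DDR1 at 0.29, LRP4 at 0.30 and PODXL at 0.33. SNTB1 was nearest to CSDC2 at 0.15, GMPR at 0.24 and ADGRE2 at 0.27, and DTNA to REEP2 at 0.16, GPC2 at 0.24 and BUB1B at 0.26. For SGCA the nearest genes, UTS2R, ST8SIA5 and MYCL, were at 0.69, 0.77 and 0.82, where the median distance of all genes was 8.69. Among the 8 genes, the nearest pairs were DMD and SGCD at 1.19, SNTB1 and DTNA at 1.30, and UTRN and SGCB at 1.33. The search over all tested genes included the 8 genes, so its nearest distances could not be larger than these. Each nearest distance is the smallest of many candidates, and a small value is not unusual for that reason.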

How the data were processed

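Polyadenylated RNA of 6 libraries was analysed from the deposited files. The submitters' processing notes name Bowtie 0.12.9, DESeq 1.10.1, CASAVA and the build hg19. The deposited table holds whole-number counts per RefSeq transcript, not normalized, and every value is even. The counting tool is not given in the sources used here. The authors' deposited table of comparisons gives, per the file headers, a signal (group means of scaled counts), a fold, a log2 fold change and p-values, and entered no test. The transposase kit does not record strand, so reads of antisense partners are counted together.

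Of 40710 rows, 39324 were matched to symbols by accession through RefSeq and 517 through GENCODE. The 868 rows without a symbol, with 0.601% to 0.744% of counts, stayed out of library sizes and tests. Rows were summed per symbol and tested in edgeR 4.0.16 (R 4.3.3), with TMM, filterByExpr (minimum count 10, minimum total 15) and 1 quasi-likelihood fit of 6 libraries with 3 residual degrees of freedom. SE was taken as |log2 fold change| divided by the root of F. Means ± SD would rest on 2 libraries, so both values are given. Levels are not compared between genes, since lengths of the counted transcripts were not used here. On simulated counts for WT-MyoD against untreated (15076 genes), the fit recovered 95 of 100 genes changed 2-fold and 100 of 100 changed 4-fold, with 19 false calls. Only 200 genes were changed there, all with a mean above 1 CPM. The spread fitted to the deposited counts was applied to read pairs that were then doubled, so simulated counts varied more than that fit describes. In the real comparison 48.5% of genes were called. Recovery with so many changed genes, or where a group is near the detection limit, was not tested.

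Replicates differed by more than sampling noise (chi-square per degree of freedom 6.02 in VP64-MyoD, 13.8 in WT-MyoD and 3.49 in untreated cells). Same-numbered libraries did not deviate together (r 0.00454 to 0.0284), so no block was used. The members, lists and markers were chosen with earlier results of these data known. Named genes are the 8 members, up to 4 called genes of each list and comparison with the smallest adjusted p, and the 3 genes nearest to each member. Some genes that this rule names are not reported here, though the counts of their lists include them. Intervals cover counting error only. Alternatives were RLE and upper quartile factors, no filter, a minimum count of 50, DESeq2 1.42.0, limma-voom (limma 3.58.1), a replicate block, counts divided by 2, the highest transcript row, fits of 2 groups and leaving out each library. Promoter sequences and start sites are from RefSeq (GRCh38.p14) and GENCODE, and coordinates of the hg19 files are not used. A comparison of protein sequences was not made.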

Additional observations from a re-analysis of the deposited data

How the results depend on the processing

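The 24 member results (8 genes in 3 comparisons) were recomputed under 16 alternatives. Of the 384 values, 381 kept their direction and their side of the threshold, 3 gained a call, and none lost a call or changed sign. Sizes could still move. The log2 fold change of DMD in VP64-MyoD against untreated cells was -0.37 in the main fit and ranged between -0.71 and -0.35. UTRN in WT-MyoD against untreated cells gained a call without a filter on low counts (log2 fold change 0.21, edgeR adjusted p = 0.0055) and without WT-MyoD replicate 1 (0.40), and ranged between 0.01 and 0.40 over all 16. DTNA in VP64-MyoD against WT-MyoD cells gained one when its transcript row with the highest total replaced the sum (-1.08, edgeR adjusted p = 0.021). That row was 1 of the 4 DTNA rows, of 17, that were called lower in this comparison. Why the DTNA rows differ was not tested. Leaving out 1 library kept the number of members called at 7 or 8 in each comparison. With the replicate number as a block, 7 members were called in WT-MyoD against untreated cells, as without it, and the numbers share no pairing in the data. Depth limits the folds of SGCA, CAV3, DRP2 and NOS1, whose lower groups held between 4 and 16 read pairs.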
